A study of Mus musculus with 32 samples.

Results

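The CCAAT/enhancer binding protein (C/EBP) genes described here are Cebpa, Cebpb, Cebpd and Cebpg. They were selected on failure against wild type, the comparison in which Cebpd stood among the largest changes of the series, and its relatives were added by family. Every probe set annotated to 1 of these symbols alone was taken, which gave 7 probe sets for 4 genes, of 24833 probe sets (controls left out) and 13674 genes with a single symbol. Because failure against wild type chose the family, the values of its members there, and those of Cebpd in failure against hypertrophy, are given as a description without a test.

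Total RNA of the mouse cardiac ventricle was hybridised to 2 types of Affymetrix array that carry different probe sets, 32 arrays in all. Each type holds 3 samples of AT1 transgenic mice (cardiac specific transgene) in heart failure, 8 samples of such mice in hypertrophy and 5 wild type samples. AT1 is a common abbreviation of the angiotensin II type 1 receptor, but the labels do not spell it out. They give neither the promoter behind the transgene nor age, sex or strain, and whether samples are separate animals is not said, so the p-values reflect sample-to-sample spread that may in part be technical.

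C/EBP proteins are transcription factors with a basic region that binds DNA and a leucine zipper through which they pair with themselves, with each other and with related factors. Cebpd and Cebpb are the inducible members: inflammatory cytokines that signal through STAT3 and NF-kB, bacterial products and glucocorticoids raise them, and they drive acute phase genes in liver and early steps of fat cell formation. Cebpa acts in terminal differentiation of liver, fat and myeloid cells, and Cebpg, which lacks an activation domain of its own, mainly serves as a dimer partner. In mouse heart, lowered C/EBP beta has been linked to cardiomyocyte growth with exercise.

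The proximal promoters of 2 members are shown, those tested on the first array type and found in RefSeq's table (build GRCm38.p6). They were chosen because Cebpb and Cebpa, measured on the same arrays, had differences of unlike size. Each spans 300 bases, of which 250 lie before and 50 after the annotated start. The Cebpb window is chr2:167688665-167688964 (plus strand), in a gene that lies between Tmem189 and Ptpn1, and the Cebpa window is chr7:35119043-35119342 (plus strand). Capitals mark the core TTGCG of C/EBP sites, the core TGACG of cyclic AMP response elements (or its complement CGTCA) and TATAAA, the letters of the TATA box.
Cebpb: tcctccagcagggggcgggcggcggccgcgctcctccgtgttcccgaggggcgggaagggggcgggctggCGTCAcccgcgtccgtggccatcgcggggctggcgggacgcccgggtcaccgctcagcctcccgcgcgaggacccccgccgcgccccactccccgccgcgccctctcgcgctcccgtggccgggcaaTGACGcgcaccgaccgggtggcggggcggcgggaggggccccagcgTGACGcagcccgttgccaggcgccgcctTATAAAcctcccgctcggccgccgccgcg
Cebpa: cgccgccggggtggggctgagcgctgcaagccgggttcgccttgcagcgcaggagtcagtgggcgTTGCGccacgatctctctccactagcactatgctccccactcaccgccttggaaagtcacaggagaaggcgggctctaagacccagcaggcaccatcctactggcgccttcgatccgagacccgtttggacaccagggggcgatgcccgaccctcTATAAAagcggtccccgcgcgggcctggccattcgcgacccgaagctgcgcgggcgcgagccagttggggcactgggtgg
The Cebpb window held TGACG 3 times, with first bases at -180 (minus strand), -53 and -7 from the start. Its TATAAA began at position 22, which lies after the annotated start. The Cebpb window also held the GC box GGGCGG 5 times, and no TTGCG. The Cebpa window held 1 TTGCG at -185 and TATAAA at -30, without TGACG or a GC box. The Cebpg window, chr7:35056517-35056816 on the minus strand, held CCAAT on its opposite strand at -89 and -28 and 1 GC box at position 45. None of the 3 windows held TTCNNNGAA, the spaced palindrome that STAT factors bind, the NF-kB motif searched, or the C/EBP palindrome TTGCGCAA, which contains TTGCG. Both strands were searched. Of all 32851 promoters of this length, 20.8% held TGACG, 17.4% TTGCG, 13.6% TATAAA, 35.7% GGGCGG, 37.4% CCAAT, 8.3% TTCNNNGAA, 4.79% the NF-kB motif and 0.183% TTGCGCAA. These matches describe letters and are not measured binding sites. Cebpa and Cebpg are neighbours on chromosome 7, with the predicted gene Gm45095 between them, Cebpb lies on chromosome 2, and Cebpd lies on chromosome 16 between Mzt2 and Spidr.

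Of the 7 probe sets, 4 were bright enough to be tested: Cebpd, Cebpb and Cebpa on the first array type and 1 of the 3 Cebpg probe sets, on the second type. The condition for a test was a signal at or above the median of the array on 3 or more arrays of the type. Cebpb did so in all 3 failure and 2 hypertrophy arrays but in no wild type array, and the tested Cebpg probe set in 3 failure and 5 hypertrophy arrays and likewise in no wild type array. Cebpd did so in 3 failure, 5 hypertrophy and 1 wild type array, and Cebpa on all 16 arrays. Values below 39.5 (first type) or 27.5 (second type) were raised to these floors before taking log2, and 1 wild type value of Cebpb lay below. Levels are not set against each other between genes, because different probe sets need not give the same signal for the same amount of RNA.

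Cebpd was higher in failing ventricles than in both other groups. Probe set 160894_at had deposited intensities of 276, 372 and 158 in failure replicates 1, 2 and 3. The hypertrophy arrays lay between 80.7 and 154 with a median of 113, and the wild type arrays had 95.0, 114, 91.1, 102 and 99.3. All 3 failure arrays lay above every other array, with replicate 3 only just above the highest hypertrophy array, while hypertrophy and wild type overlapped. The mean was 269 ± 107 in failure (SD, n = 3), 119 ± 27.3 in hypertrophy (SD, n = 8) and 100.1 ± 8.52 in wild type (SD, n = 5). The log2 change was 1.34 ± 0.24 (SE) in failure against wild type, which chose the gene, and 1.12 ± 0.22 in failure against hypertrophy, which shares the failure arrays. Without failure replicate 2 the change against wild type was 1.07, and without failure replicate 3 it was 1.68.

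The other Cebpd probe set, 164853_r_at on the second type, was too dim to be tested. It gave 44.4, 54.1 and 26.6 in failure, 23.4 to 67.1 with a median of 31.0 in hypertrophy, and 26.7 to 44.1 with a median of 30.6 in wild type. The highest value was that of a hypertrophy array, and all 3 groups overlapped. At this signal, below every array's median, it gives no second reading of the Cebpd difference.

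Cebpb, which shares its inducers with Cebpd, had a log2 difference in failure as large as that of Cebpd. Probe set 92925_at had 187, 188 and 125 in failure, against 81.2, 66.4, 35.7, 50.6 and 61.3 in wild type. Hypertrophy arrays ranged from 47.3 to 175 with a median of 59.3. Failure did not overlap with wild type, and the hypertrophy arrays divided unevenly: replicates 1, 2 and 3 had 107, 175 and 100.1, and the other 5 lay between 47.3 and 61.4, inside the wild type range. Means were 167 ± 36.6 in failure (SD, n = 3), 82.0 ± 43.7 in hypertrophy (SD, n = 8) and 59.0 ± 17.1 in wild type (SD, n = 5). The log2 change in failure against wild type was 1.50 ± 0.36 (SE).

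The Actb control on the same arrays, the signal of a 5' probe set over that of a 3' one, was high in the hypertrophy arrays with high Cebpb. The ratio was 0.992, 0.870 and 0.848 in hypertrophy replicates 1, 2 and 3, which had the high Cebpb, and 0.357 to 0.756 in the other 5 hypertrophy arrays. It was 1.10, 0.765 and 1.02 in failure and 0.545 to 0.752 in wild type, so failure did not overlap with wild type in this ratio either. Within these groups the order was not that of Cebpb: failure replicate 2, with the lowest ratio of its group, had a Cebpb signal of 188, and wild type replicate 1, with the lowest ratio of 0.545, had the group's highest Cebpb, 81.2. The Gapdh ratio followed this only in part. It was 1.09, 0.917 and 0.961 in hypertrophy replicates 1, 2 and 3, and 1.04 in replicate 8, whose Cebpb was 55.4. In failure it ran from 0.922 to 1.11 and overlapped with wild type, at 0.806 to 0.955. The part of these ratios in the Cebpb and Cebpd results was not tested. For Cebpd the hypertrophy arrays of high Actb ratio had 108, 154 and 80.7, which spans the group's whole range of signals.

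**Figure D1:**
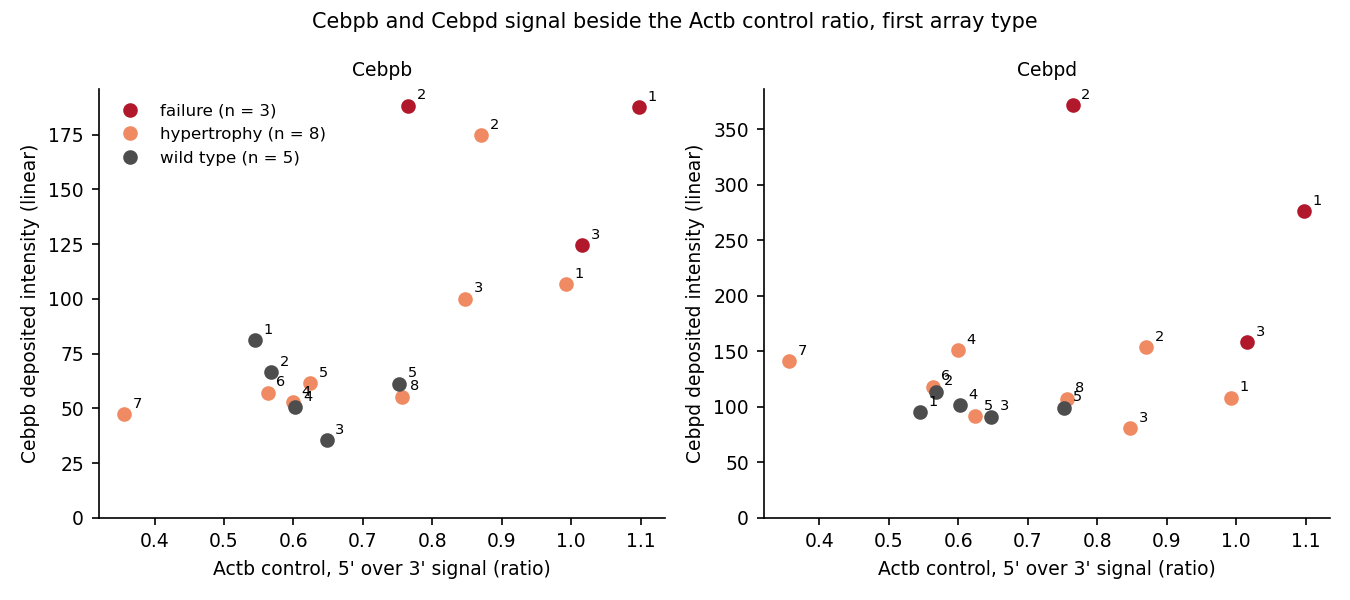
Deposited intensity of Cebpb (left) and Cebpd (right) on the first array type against the Actb 5' over 3' ratio of the same array, 1 point per array with its replicate number. The 3 hypertrophy arrays with ratios of 0.848 to 0.992 have the 3 highest Cebpb signals of their group, while their Cebpd signals run from 80.7 to 154.

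Cebpa differed less. Probe set 98447_at had 307, 316 and 279.5 in failure, against 236, 231, 246, 237 and 225 in wild type, with 210.1 to 297 and a median of 256 in hypertrophy. Failure and wild type did not overlap, and 5 of 8 hypertrophy arrays lay above the highest wild type array. The mean was 301 ± 19.2 in failure (SD, n = 3), 254 ± 27.3 in hypertrophy (SD, n = 8) and 235 ± 7.92 in wild type (SD, n = 5), a log2 change of 0.36 ± 0.11 (SE) in failure against wild type. With arrays scaled to equal medians that change was 0.26.

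Cebpg, the dimer partner, had 1 probe set of usable signal. Probe set 113580_at on the second type had 80.5, 99.6 and 119.6 in failure, against 68.0, 63.0, 65.4, 69.8 and 53.9 in wild type, and 39.9 to 100.2 with a median of 79.9 in hypertrophy. Failure lay above wild type on all 3 arrays and overlapped with hypertrophy, whose replicate 1 was the lowest of all 16 arrays. Means were 99.9 ± 19.5 in failure (SD, n = 3), 76.0 ± 19.7 in hypertrophy (SD, n = 8) and 64.0 ± 6.20 in wild type (SD, n = 5), with a log2 change of 0.63 ± 0.23 (SE) in failure against wild type. The other Cebpg probe sets stayed near the bottom of their arrays. Probe set 92195_at on the first type was below the floor on all 16 arrays, with means of 24.4 in failure, 24.2 in hypertrophy and 22.4 in wild type. Probe set 165100_i_at on the second type was below the floor on 13 of 16 arrays, with means of 21.1 in failure, 20.8 in hypertrophy and 22.0 in wild type.

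**Figure D2:**
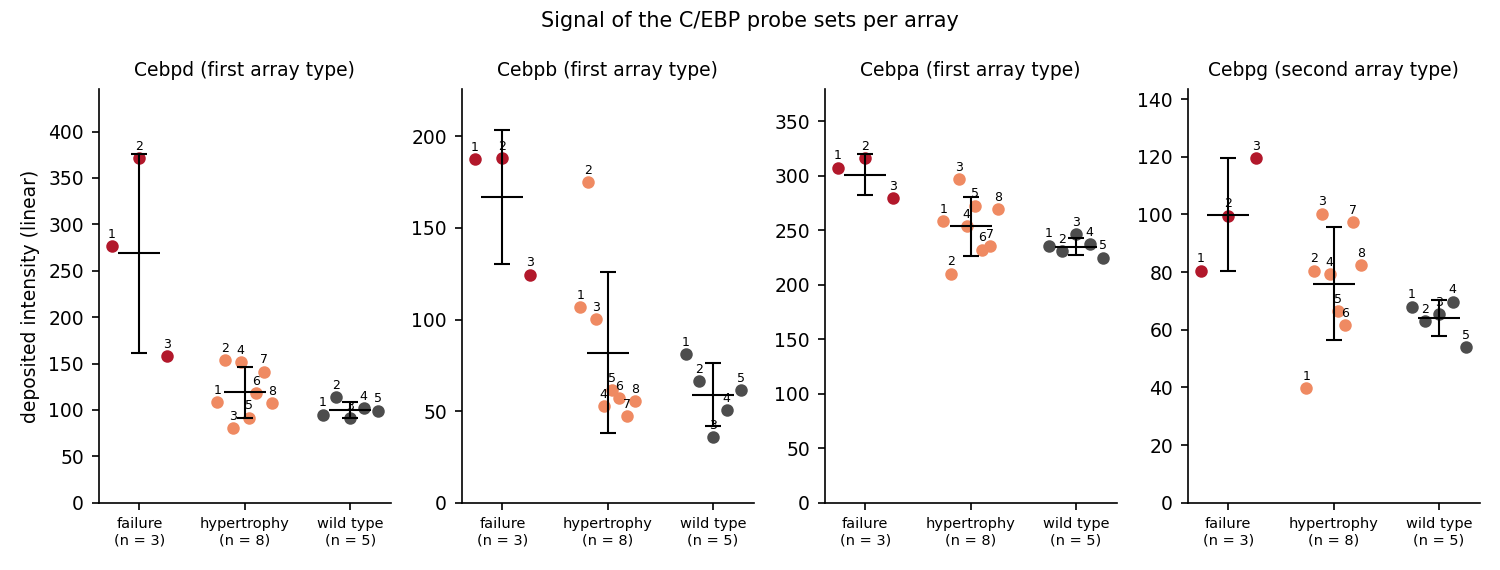
Deposited intensity of the 4 tested C/EBP probe sets on each array (linear axis from 0), with replicate numbers, the group mean as a horizontal line and the SD as error bars, for failure (n = 3), hypertrophy (n = 8) and wild type (n = 5). In each panel all 3 failure arrays lie above all 5 wild type arrays, and hypertrophy overlaps with wild type.

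In all 4 tested probe sets the lowest failure array thus lay above the highest wild type array. Among all tested probe sets the share with this order was 8.58% on the first array type and, on the other, 9.77%. The limma fit called 0.143% and 0.357% of all tested probe sets on the 2 types in failure against wild type (adjusted p under 0.05). On the first type 9 of the 10 called probe sets were higher in failure, against 15 of 33 after median scaling and 20 of 30 after quantile scaling, and on the second type 20 of 25 were higher, against 19 of 40 after median scaling. As this comparison chose the family, nothing is read from the members' count. Over all 13984 tested probe sets the median log2 change was 0.05.

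In hypertrophy against wild type, which took no part in the choice, neither Cebpd nor Cebpa passed the threshold. The log2 change was 0.22 ± 0.19 (SE) for Cebpd (limma, adjusted p = 0.965) and 0.10 ± 0.09 for Cebpa (adjusted p = 0.964). It was 0.35 ± 0.28 for Cebpb and 0.20 ± 0.18 for Cebpg. Both passed the filter on low signal without any wild type array, and Cebpb only with the help of the failure arrays. Their changes are therefore given without a test. Without hypertrophy replicate 2 the Cebpb value was 0.17, without wild type replicate 3 it was 0.21, and without hypertrophy replicate 1 the Cebpg value was 0.33. All 4 estimates were positive and about as large as their standard errors. Over all tested probe sets the median was 0.01, and 52.0% were positive. Of the 8 hypertrophy arrays, 4 lay above the highest wild type array for Cebpd, 3 for Cebpb, 5 for Cebpa and 5 for Cebpg. How often tested probe sets as a whole had such counts was not determined, so nothing is read from them. The background of calls was 0% on the first type, where 312 of 6980 probe sets had an unadjusted p under 0.05, and 0.171% on the second.

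In failure against hypertrophy Cebpa and Cebpg did not pass the threshold, in a comparison that shares the failure arrays with the one that chose the family. Cebpa had 0.25 ± 0.10 (adjusted p = 0.410), with 2 of 3 failure arrays above all 8 hypertrophy arrays, or 0.16 with median scaling. Cebpg had 0.43 ± 0.22 (adjusted p = 0.608), with 1 of 3 above. Cebpb passed the filter on low signal only with the help of the 3 failure arrays, so its log2 change of 1.14 ± 0.33, with 2 of 3 failure arrays above all hypertrophy arrays, is given without a test. Cebpd alone among the 4 had all failure arrays above all hypertrophy arrays, an order that 1.75% of the tested probe sets of the first type and 1.2% of those of the second had. Calls made up 0% on the first type, where 702 probe sets had an unadjusted p under 0.05, and 0.0286% on the second.

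Cebpd was next set against its relatives on each array of the first type. For every array, the log2 value of each gene minus its own wild type mean was taken, and the mean of Cebpa and Cebpb was subtracted from Cebpd. The result was 0.43, 0.83 and -0.01 in failure replicates 1, 2 and 3, a mean of 0.42 ± 0.42 (SD, n = 3). In hypertrophy it ran from -0.87 to 0.65, was positive in 4 of 8 arrays and averaged -0.01 ± 0.51 (SD), and in wild type the SD was 0.19 (n = 5). No difference between hypertrophy and wild type was detected (-0.01, exact two-sided permutation test over 1287 arrangements, p = 0.977), and the values covered a wider range in hypertrophy. Cebpb, which passed the filter only with the help of the failure arrays, is part of this measure, so the p-value is a description.

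The relatives took unequal parts in this. Against Cebpa alone, Cebpd was ahead in all 3 failure arrays, by 1.08, 1.47 and 0.41 on the log2 scale. Against Cebpb alone it differed by -0.22, 0.20 and -0.44, so that Cebpb was ahead in 2 of the 3. On this array type the failing hearts therefore showed like log2 differences for both inducible members and a smaller one for Cebpa, given here without a test.

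**Figure D3:**
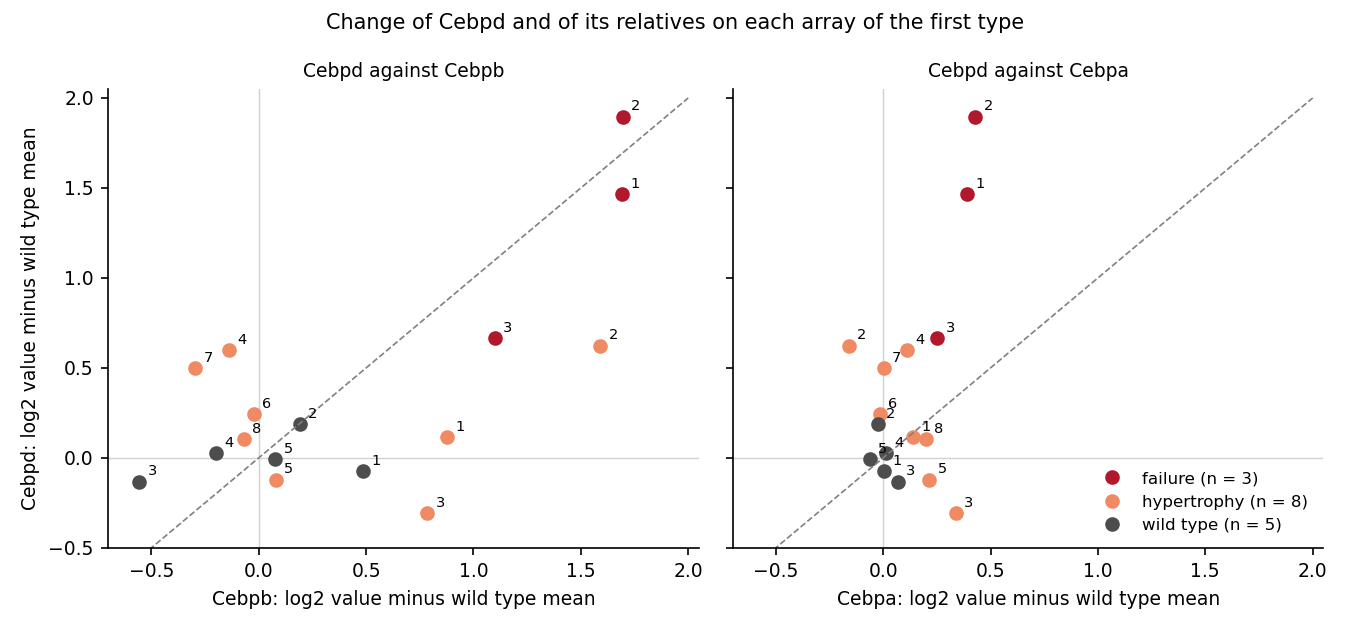
Log2 value of Cebpd minus its wild type mean on each array of the first type, against the same for Cebpb (left) and Cebpa (right), with replicate numbers. The dashed line marks equal change; failure arrays lie near it for Cebpb and above it for Cebpa by 0.41 to 1.47, and hypertrophy replicates 1, 2 and 3 lie to the right of it for Cebpb.

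Within hypertrophy, replicate 2 was the highest array in both Cebpd and Cebpb, and the next highest arrays differed. Cebpd was highest in replicates 2, 4 and 7, with 154, 151 and 141, and Cebpb in these had 175, 52.8 and 47.3. Over the 8 hypertrophy arrays Pearson's r between the log2 values of Cebpd and Cebpb was -0.01 (exact permutation p = 0.979, adjusted over the 3 pairs p = 0.979; Spearman's rho = -0.12, exact permutation p = 0.793, adjusted p = 0.977), and r was -0.46 without replicates 2 and 3, the arrays farthest from the median in Cebpd (exact permutation p = 0.404). Between Cebpb and Cebpa it was -0.24 (exact permutation p = 0.563, adjusted p = 0.845; rho = 0.02, exact permutation p = 0.977, adjusted p = 0.977), and it turned to 0.80 without replicates 1 and 2, the arrays farthest from the median in Cebpb (exact permutation p = 0.0333, not adjusted).

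Cebpd and Cebpa ran in opposite directions over the hypertrophy arrays. Replicates 2 and 3, highest and lowest in Cebpd with 154 and 80.7, had the lowest and highest Cebpa, with 210.1 and 297. Pearson's r was -0.83 (exact permutation p = 0.0107, adjusted over the 3 pairs p = 0.0321) and Spearman's rho -0.90 (exact permutation p = 0.00456, adjusted p = 0.0137, n = 8). Without these 2 arrays r was -0.62 (exact permutation p = 0.193). Leaving out the extremes of Cebpd narrows its range and leaves 6 arrays, so this cannot tell how far the relation rests on them. The relation also lost its threshold with arrays scaled to equal medians, r = -0.48 (exact permutation p = 0.232), and with quantile scaling, r = -0.59 (exact permutation p = 0.128).

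Each of the 4 probe sets varied more among hypertrophy arrays than among wild type arrays. The coefficient of variation was 22.9% against 8.51% for Cebpd, 53.3% against 29.0% for Cebpb, 10.7% against 3.37% for Cebpa and 25.9% against 9.69% for Cebpg. A larger spread in hypertrophy was the rule on these arrays: 81.3% of the tested probe sets of the first type and 75.5% of those of the second had it. The ratio of the 2 coefficients was 2.69 for Cebpd, 1.84 for Cebpb, 3.19 for Cebpa and 2.67 for Cebpg. A ratio at least as large was found in 15.1%, 37.2% and 9.40% of first type probe sets and in 11.8% of second type ones, beside medians of 1.55 and 1.42.

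The 6 probe sets whose log2 profile over the 16 arrays of the first type was most like that of Cebpd, by Pearson's r among 6175 probe sets of a single gene, were those of Nfkbia, Sspn, Hspa4, Mt2, Bgn and Aldh1a1. Nfkbia (104149_at), the inhibitor that holds NF-kB in the cytoplasm, came first with r = 0.88. It had 242, 229.6 and 173 in failure, against 112 to 132 with a median of 121 in wild type, and 106 to 193 with a median of 126 in hypertrophy. The other r were 0.85 for Sspn, a member of the dystrophin complex, 0.83 for the chaperone gene Hspa4 and 0.82 for Mt2, a metallothionein. For Bgn, a matrix proteoglycan, r was 0.82, and for Aldh1a1, a retinaldehyde dehydrogenase, 0.81.

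These r rest largely on the failure arrays, in which Cebpd was high. Over the 13 other arrays r was 0.75 for Nfkbia, 0.49 for Sspn, 0.47 for Bgn, 0.43 for Aldh1a1, 0.38 for Hspa4 and 0.20 for Mt2. Within hypertrophy alone (8 arrays) Nfkbia had 0.73 and the others 0.23 to 0.42. Of the relatives, Cebpb ranked 65 with r = 0.67 and Cebpa ranked 411 with r = 0.47. The points share their arrays and scaling, and these r are a description. Another Nfkbia probe set, 101554_at, had 272 ± 44.0 in failure (SD, n = 3) and 204 ± 14.4 in wild type (SD, n = 5). Its log2 change was 0.41 ± 0.18, against 0.81 ± 0.19 (SE) for 104149_at. In hypertrophy the means of the 2 probe sets went opposite ways. The mean of 101554_at was 186 (log2 change -0.16 ± 0.14 against wild type), and that of 104149_at was 140, against 121 in wild type. The 2 probe sets of this gene thus gave different sizes in failure and different directions in hypertrophy.

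**Figure D4:**
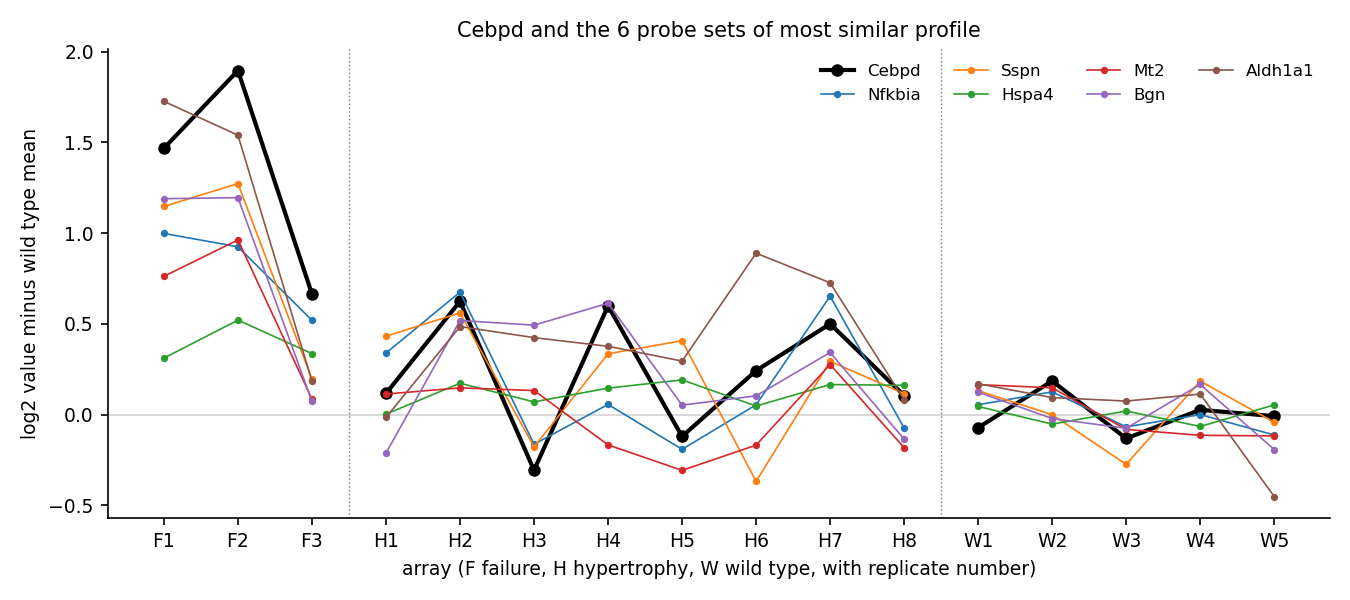
Log2 value minus the wild type mean of Cebpd (thick line) and of the 6 most similar probe sets on each array of the first type, in the order failure, hypertrophy, wild type; lines join arrays only to guide the eye. In replicate 3 of failure Mt2, Bgn, Sspn and Aldh1a1 lie close to wild type while Nfkbia, Hspa4 and Cebpd stay above it. In hypertrophy the Nfkbia probe set shown, 104149_at, follows Cebpd most closely of the 6.

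The genes around the C/EBP factors were looked at in 8 lists, in which a gene stands for its probe set of highest mean. In failure against wild type 59.7% of all 13984 tested probe sets had a positive log2 change, and 746 of 6980 on the first type and 854 of 7004 on the second had an unadjusted p under 0.05, which is the background for the counts that follow. None of the listed genes passed the threshold in any of the 3 comparisons (limma, adjusted over all tested probe sets). Among the inputs, 10 of 13 tested genes of the interleukin-6 family, JAK and STAT3 list had a positive log2 change in failure against wild type (median 0.13, with 2 at an unadjusted p under 0.05). The lowest p-values were those of Bcl3, an NF-kB cofactor, at 0.45 ± 0.14 (SE, adjusted p = 0.259), Socs2, a suppressor of cytokine signalling, at 0.72 ± 0.24 (adjusted p = 0.198) and the kinase gene Tyk2 at 0.19 ± 0.10 (adjusted p = 0.542). Of the interleukin-1, TNF, toll-like receptor and NF-kB list, 13 of 16 were positive (median 0.08, with 2 at an unadjusted p under 0.05). Cd14, a co-receptor for bacterial lipopolysaccharide, had 0.38 ± 0.13 (adjusted p = 0.284), Nfkbia 0.41 ± 0.18 (adjusted p = 0.417) and the receptor gene Tlr4 0.25 ± 0.17 (adjusted p = 0.581).

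The list of glucocorticoid-responsive genes had the highest median of the 8 in failure against wild type, 0.28, with 14 of 19 positive and 8 at an unadjusted p under 0.05. With all probe sets of each gene the lead was smaller. The median was then 0.20, beside 0.18 for the growth arrest and survival genes and 0.15 for the acute phase and complement targets. Mt2 had 1086 ± 316 in failure (SD, n = 3) and 695 ± 70.2 in wild type (SD, n = 5), a log2 change of 0.60 ± 0.18 (adjusted p = 0.218). Sgk1, a serum and glucocorticoid induced kinase, had 292 ± 30.4 in failure and 203 ± 29.4 in wild type, a log2 change of 0.54 ± 0.16 (adjusted p = 0.218). Fkbp4, a co-chaperone of the glucocorticoid receptor, went the other way at -0.84 ± 0.25 (adjusted p = 0.219). So did Tsc22d3 (-0.59), Bcl6 (-0.25), Klf9 (-0.18) and Lcn2 (-0.18). Fkbp5 (0.09) and Zbtb16 (0.01) had small positive values, and the largest were those of Pdk4 (1.07), Mt1 (0.80) and Ddit4 (0.69). In hypertrophy against wild type the median of this list was 0.01, with 10 of 19 positive.

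Partners and targets gave smaller medians. Of the dimer partners and stress-induced leucine zipper factors 9 of 15 were positive (median 0.04, none at an unadjusted p under 0.05). Creb1 had -0.27 ± 0.14 (adjusted p = 0.518), the Fos relative Fosl2 -0.26 ± 0.15 (adjusted p = 0.590), and Ddit3, a stress-induced C/EBP relative that pairs with the family, 0.27 ± 0.16 (adjusted p = 0.598). Of the acute phase and complement targets 9 of 16 were positive (median 0.08, with 5 at an unadjusted p under 0.05). Clu, the secreted chaperone clusterin, came closest to the threshold, with 1582 ± 195 in failure (SD, n = 3) and 757 ± 93.1 in wild type (SD, n = 5), a log2 change of 1.06 ± 0.21 (adjusted p = 0.0538). Its failure arrays lay between 1372 and 1759 and its wild type arrays between 676 and 916, and its adjusted p was 0.0384 without failure replicate 3 and from 0.0135 to 0.390 over all alternatives run. Cp, the ferroxidase ceruloplasmin, had 0.62 ± 0.15 (adjusted p = 0.117) and Saa3, a serum amyloid A gene, 0.49 ± 0.18 (adjusted p = 0.319).

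Adipocyte and lipid targets had 8 of 12 positive (median 0.07, none at an unadjusted p under 0.05), with Pck1 at 0.21 ± 0.11 (adjusted p = 0.524), the lipase gene Lpl at 0.19 ± 0.11 (adjusted p = 0.560) and the growth factor gene Igf1 at -0.28 ± 0.17 (adjusted p = 0.604). The cardiac growth genes tied to C/EBP beta had 5 of 14 positive (median -0.04, with 2 at an unadjusted p under 0.05). Ppara, the fatty acid oxidation regulator, had -0.46 ± 0.14 (adjusted p = 0.218), Tnni3, cardiac troponin I, -0.34 ± 0.13 (adjusted p = 0.335) and Nkx2-5, a cardiac homeobox factor, -0.30 ± 0.15 (adjusted p = 0.523). The growth arrest and survival genes tied to C/EBP delta had 9 of 14 positive (median 0.18, with 2 at an unadjusted p under 0.05). Rb1, the retinoblastoma gene, had -0.94 ± 0.29 (adjusted p = 0.230), and the superoxide dismutase genes Sod1 and Sod2 had -0.43 ± 0.18 (adjusted p = 0.400) and -0.72 ± 0.37 (adjusted p = 0.523). In hypertrophy against wild type the medians of all 8 lists lay between -0.07 and 0.04, around the 0.01 of all tested probe sets.

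**Figure D5:**
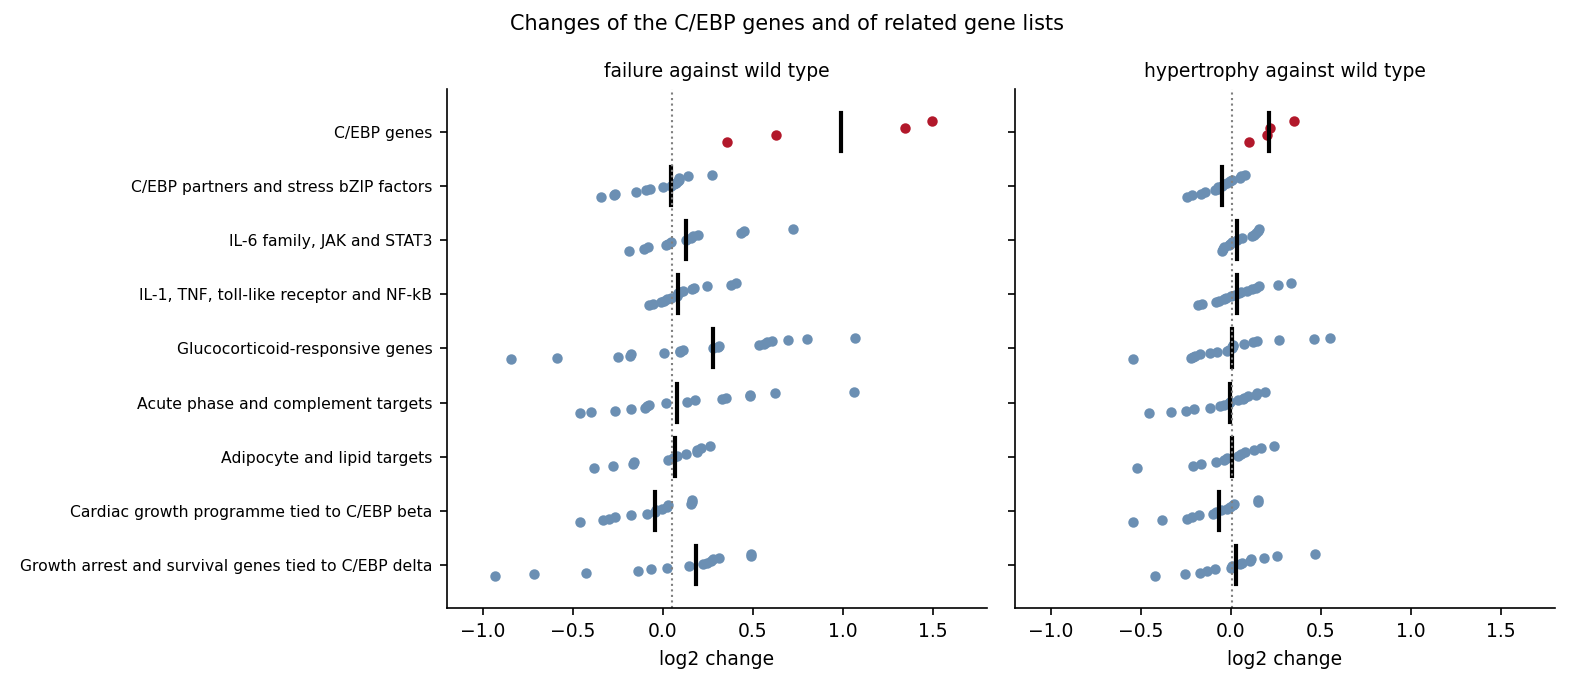
Log2 change of each tested C/EBP probe set (top row) and of each tested gene of 8 related lists, in failure against wild type (left) and hypertrophy against wild type (right); short bars are medians and the dotted line is the median of all tested probe sets. The lists stay around the dotted line in hypertrophy, and in failure the glucocorticoid-responsive list has the highest median of the 8, 0.28, with genes from -0.84 to 1.07.

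The arrays were checked for other cell types, since in bulk tissue fewer cells of a type and less RNA per cell cannot be told apart. The ventricular markers Myl2 and Myh6 were among the brightest probe sets of every group, at 7821 to 9118 and 7255 to 9799. The summed signal of 9 of 10 fibroblast markers on the first type was 6990, 7646 and 3718 in failure replicates 1, 2 and 3, against 2481 to 5745 in hypertrophy and 3675 to 4432 in wild type. The failure array lowest in Cebpd was thus also lowest in fibroblast markers and lay inside the wild type range, and its Cebpd of 158 was above all wild type arrays. In failure against wild type 8 of 9 tested fibroblast markers had a positive log2 change (median 0.47), and 0 passed the threshold, with 3 at an unadjusted p under 0.05, beside the 59.7% positive and the 746 of 6980 over all probe sets. In hypertrophy the sum was highest in replicate 3, at 5745, which had the lowest Cebpd of the 16 arrays. Summed smooth muscle and pericyte markers (6 of 7) were 1695, 1860.3 and 1985 in failure, 938 to 1815 in hypertrophy and 1339 to 1659 in wild type. Summed atrial markers (3 of 4) were 4051, 4307 and 5901 in failure, 957 to 4629.6 in hypertrophy and 1179 to 3344 in wild type. Nppa, also a marker of cardiac load, made up 3475, 3943 and 4420 of these failure sums, so they are largely Nppa signal. In failure against wild type 2 of 3 tested atrial markers (-0.61 to 1.60) and 6 of 7 smooth muscle and pericyte markers had a positive log2 change. None passed the threshold. In both lists failure lay above wild type without overlap, an order that 8.58% of single probe sets tested on the first type had. Both sums were highest in failure replicate 3, which had the lowest Cebpd and Cebpb of the failure arrays. Endothelial markers (5 of 8) ran from 714 to 1001 in failure, 388 to 954 in hypertrophy and 636 to 839 in wild type, with overlap. The single mesothelial marker summed (1 of 4) and the 8 of 10 ventricular markers also overlapped between failure and wild type. The part of these cell types in the C/EBP results was not tested.

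Signals were also summed for cell types in which C/EBP genes are best known. Summed macrophage markers (9 of 10) ran from 2015 to 2757 in failure, 1690 to 2471 in hypertrophy and 1853 to 2467 in wild type. Neutrophil markers (7 of 9) ran from 2677 to 2976 in failure, 2767 to 3718 in hypertrophy and 2866 to 3167 in wild type, and adipocyte markers (3 of 8) from 864 to 945 in failure, 820.5 to 1029 in hypertrophy and 822 to 956 in wild type. The 3 groups overlapped in each of these 3 sums. In failure against wild type 8 of 9 tested macrophage markers had a positive log2 change (median 0.14), with 3 at an unadjusted p under 0.05 (limma). For neutrophil markers 2 of 7 were positive (median -0.08) and for adipocyte markers 4 of 4 (median 0.05), with 0 at an unadjusted p under 0.05. In each list 0 passed the threshold. Over all tested probe sets 59.7% were positive, and 746 of 6980 on the first type had an unadjusted p under 0.05. The defining markers Adipoq and Fabp4 of fat cells, S100a8 of neutrophils and Mrc1 of macrophages were too dim to be tested, and no marker is listed at 0. The natriuretic peptide genes, markers of cardiac load, were high in all failure arrays: Nppa had 3475 to 4420 in failure, 646 to 3982 in hypertrophy and 929 to 2688 in wild type, and Nppb 3845 to 4893 in failure, 958 to 3419 in hypertrophy and 1145 to 3055 in wild type.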

How the data were processed

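Per the labels, total RNA of mouse cardiac ventricle was measured on 2 Affymetrix array types. Each deposited value is the linear intensity of 1 probe set on 1 array. The scaling and summary steps the authors used for these deposited intensities are not stated in the labels or tables at hand. The lowest deposited intensity is 1, and array medians ran from 91.8 to 121 on the first type and from 69.3 to 80.6 on the second. Medians varied by 6.60% and 4.65% (coefficient of variation) and 5% trimmed means by 4.81% and 3.62%. Values were used as deposited because medians or trimmed means varied by less than 5%, which on the first type only the trimmed means did. None of the 120 pairs of arrays per type held identical values. Precision is set by the number of arrays: log2 changes had a median SE of 0.13 in hypertrophy and 0.17 in failure, both against wild type.

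Values were raised to the 20th percentile of the array type (39.5 and 27.5) and taken to log2, so changes of dim probe sets are understated. Probe sets other than controls at or above the array median on 3 or more arrays were tested, 6980 of 12488 and 7004 of 12477. Each type was fitted with lmFit and eBayes of limma 3.58.1 under R 4.3.3 (two-sided), 1 model over 16 arrays, with Benjamini-Hochberg adjustment per type and comparison and a threshold of 0.05. Permutation tests went through all arrangements in Python with numpy 2.4.6. Ranks and the adjustment over the 3 pairs used scipy 1.17.1, and plots used matplotlib 3.10.9. The fitting code was first tested on simulated data with known changes. Names come from the platform's annotation, which gave 1 gene symbol to 10833 probe sets of the first type and 10581 of the second, several to 396 and 178, and none to 1193 and 1652. Gene identifiers matched RefSeq's GRCm38.p6 table for 10817 and 10550. Promoters come from RefSeq for 3 of the 4 genes.

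Genes named in the text are all C/EBP probe sets, up to 3 genes of lowest p per list (none was called), the 6 profiles most like Cebpd, and the stated markers. Further genes of the glucocorticoid-responsive list are named to show both of its directions. The members, lists and alternatives were chosen with earlier results of these data known. Labels and tables give no batch or scan date. Alternatives were other scalings, floors and filters, a variance trend, only the groups compared, a replicate block and leaving out arrays; those for the correlation of Cebpd and Cebpa were chosen after seeing the data.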

Additional observations from a re-analysis of the deposited data

How the results depend on the processing

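Signs of the log2 changes of the 4 tested C/EBP probe sets turned under no alternative run; of 75 values each, 75 for Cebpb, 74 for Cebpg, 73 for Cebpa and 71 for Cebpd moved by less than the spread between arrays and kept their side of the threshold where tested. Those that moved more were Cebpa in failure against wild type with median scaling, 0.26, Cebpd there without a floor (log2 of value plus 16), 1.22, and fits that left out 1 array. Leaving out 1 array in turn gave 1.07 (without failure replicate 2) to 1.68 (without failure replicate 3) for Cebpd, 0.32 to 0.41 for Cebpa and 0.49 to 0.78 for Cebpg in failure against wild type, and 0.85 to 1.46 for Cebpd in failure against hypertrophy. Cebpd against its relatives ran from 0.21 (without failure replicate 2) to 0.63 (without failure replicate 3) in failure and from -0.10 to 0.12 in hypertrophy, where the sign turned with 7 of the arrays left out and no p passed the threshold. The correlation of Cebpd and Cebpa in hypertrophy was -0.48 with median and -0.59 with quantile scaling, and -0.95 to -0.73 with 1 array left out. Scaling moved the median log2 change of all tested probe sets by at most 0.09. List calls stayed at 0 with all probe sets of a gene, and 581 of 597 values of named list genes kept their side, while 16 passed the threshold, 9 of them for Clu. With 1 array left out, the values of Nkx2-5 (-0.51 to -0.07), Igf1 (-0.38 to -0.12), Fosl2 (-0.36 to -0.11), Tlr4 (0.14 to 0.39) and Saa3 (0.31 to 0.65) in failure against wild type moved by over 1.5 times. With the replicate block the Cebpb change was 0.61 for failure against hypertrophy, and its change in hypertrophy relative to wild type was 0.64.

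Counts of called probe sets depended on the settings more. In failure against wild type, 10 on the first type became 33 with median scaling, 30 with quantile scaling, 22 without the filter, 122 with only the groups compared, 3 with the replicate block, 36 without hypertrophy replicates 6 and 7, and 0 (without failure replicate 1) to 51 (without failure replicate 3) with 1 array left out. The 25 on the second type became 40 with median scaling, 55 without the filter, 193 with only the groups compared, 6 with the replicate block, 70 without hypertrophy replicates 6 and 7, and 4 to 79. In hypertrophy against wild type, 0 on the first type became 1 without the filter and 0 to 1 with 1 array left out, and 12 on the second type became 3 with the replicate block, 7 without replicates 6 and 7, and 5 to 26. In failure against hypertrophy, 0 on the first type became 10 without the filter and 0 to 24, and 2 on the second type became 12 without the filter, 0 with only the groups compared, 0 with the replicate block, 0 without replicates 6 and 7, and 0 to 14. The cause was not tested. Replicate numbers share only a number: over 11 same-numbered pairs per type, deviations from the group means correlated from -0.19 to 0.36 and from -0.18 to 0.14, so the block result is no paired analysis.

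Depth is limited by signal: 3 of the 7 C/EBP probe sets were too dim to test, and 3 failure arrays set the precision of each failure value.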

Other observations

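Hypertrophy replicates 6 and 7 had Gapdh 5' over 3' ratios of 0.468 and 0.0487 on the first type, against 0.806 to 0.955 in wild type. Their Cebpd signals were 118 and 141 and their Cebpb signals 57.2 and 47.3, inside the range of the other hypertrophy arrays except for the Cebpb of replicate 7, the lowest of the group.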
